A study of Mus musculus with 6 samples.

Results

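The genes described here are Pparg, Rxra, Fabp4, Fabp5, Cd36, Plin2, Angptl4, Cpt1a, Pdk4 and Acadl, 10 genes of the PPAR-gamma/RXR axis and of fatty acid handling, among 56748 Ensembl genes counted. They were listed by symbol for their place in the pathway, with earlier results of these data known, and each symbol matched 1 Ensembl ID. Bone marrow derived dendritic cells (BMDCs) of C57BL/6 WT mice and of mice with a global Nfkb2-/- genotype, whose strain is not given separately, were compared, with 3 libraries of polyadenylated RNA per genotype and no stimulation. Cells of both genotypes had the same culture, 9 days in all. They were kept for 5 days with 20 ng/mL GM-CSF and then for 4 days with 20 ng/mL GM-CSF and 10 ng/mL IL-4. Because the gene is missing in every cell of the knockout mice, progenitors in the marrow lacked it as well. The age of the marrow donors of these libraries is not given in the sources used here. Each library holds a mixed culture, so that fewer cells of a type and less RNA per cell cannot be told apart.

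PPAR-gamma is a nuclear receptor that binds fatty acids and their derivatives and acts on DNA as a heterodimer with a retinoid X receptor such as RXR-alpha, the product of Rxra. In myeloid cells GM-CSF and IL-4 are known to induce Pparg, and its targets include genes for uptake, transport, storage and oxidation of fatty acids. In dendritic cells the same receptor is known to raise retinoic acid synthesis, a step catalysed by Raldh2, which Aldh1a2 encodes.

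Total counts ranged from 29863927 to 55623068 per library. Nfkb2 itself was lower in Nfkb2-/- BMDCs in every library, as the genotype labels say (241 ± 103 CPM in WT against 36.6 ± 7.13 CPM, SD, n = 3 each, with a log2 fold change of -2.72 and an adjusted p of 0.0307 by edgeR's quasi-likelihood test). CPM denotes TMM-normalized read counts relative to sequencing depth. Standard errors (SE) below refer to log2 fold changes. Aldh1a2 was higher, at 416 ± 65.1 CPM against 77.6 ± 27.4 CPM (SD, n = 3 each, log2 fold change 2.42, SE 0.31, adjusted p = 0.0307, edgeR). Dendritic cell genes such as H2-Aa, Cd74 and Itgax were abundant in all 6 libraries. WT replicate 3 stood apart in macrophage genes: the summed level of 11 macrophage markers was 161 CPM there, against 964 and 1080 CPM in WT replicates 1 and 2 and 620 to 766 CPM in the Nfkb2-/- libraries. Csf1r, which encodes the receptor for M-CSF, measured 37.2 CPM in WT replicate 3 and 115 to 250 CPM in the others. The genes of mature dendritic cells Ccr7 and Fscn1 measured 1897 and 1853 CPM in WT replicate 3, the highest values of the 6 libraries. Other dendritic cell markers went either way there. Cd74 was also highest, at 3691 CPM, whereas Itgax and Cd209a were lowest, at 123 and 3.51 CPM. Nfkb2-/- replicate 1 stood apart in another way, with at least 1 count on 47952 Ensembl IDs against 27692 to 33841 in the others. Where leaving out either library changed a call or a direction among the 10 genes, both values are given.

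All 10 genes had at least 50 counts over the 6 libraries and were tested among 21849 genes. By edgeR, 0 of the 10 were differentially expressed, meaning that they had to exceed 1.2-fold at an adjusted p-value below 0.05, where 1.14% of all genes tested were. The unadjusted p-value was below 0.05 for 2 of the 10, Cd36 and Rxra, against 17.1% of all genes. For 1 of the 10, Cd36, no WT library lay within the range of the Nfkb2-/- libraries or the reverse, which held for 24.7% of all genes. DESeq2 called 1 of the 10, Cd36, against 8.65% of all genes, and limma voom called 0. Without WT replicate 3, edgeR called 2 of the 10, Cd36 and Rxra, where 1.27% of all genes were called. Leaving out Nfkb2-/- replicate 1 as well, a setting chosen after seeing the data, gave the same 2 genes, with log2 fold changes of 1.89 for Cd36 and -0.86 for Rxra and with 4.85% of all genes called.

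**Figure D1:**
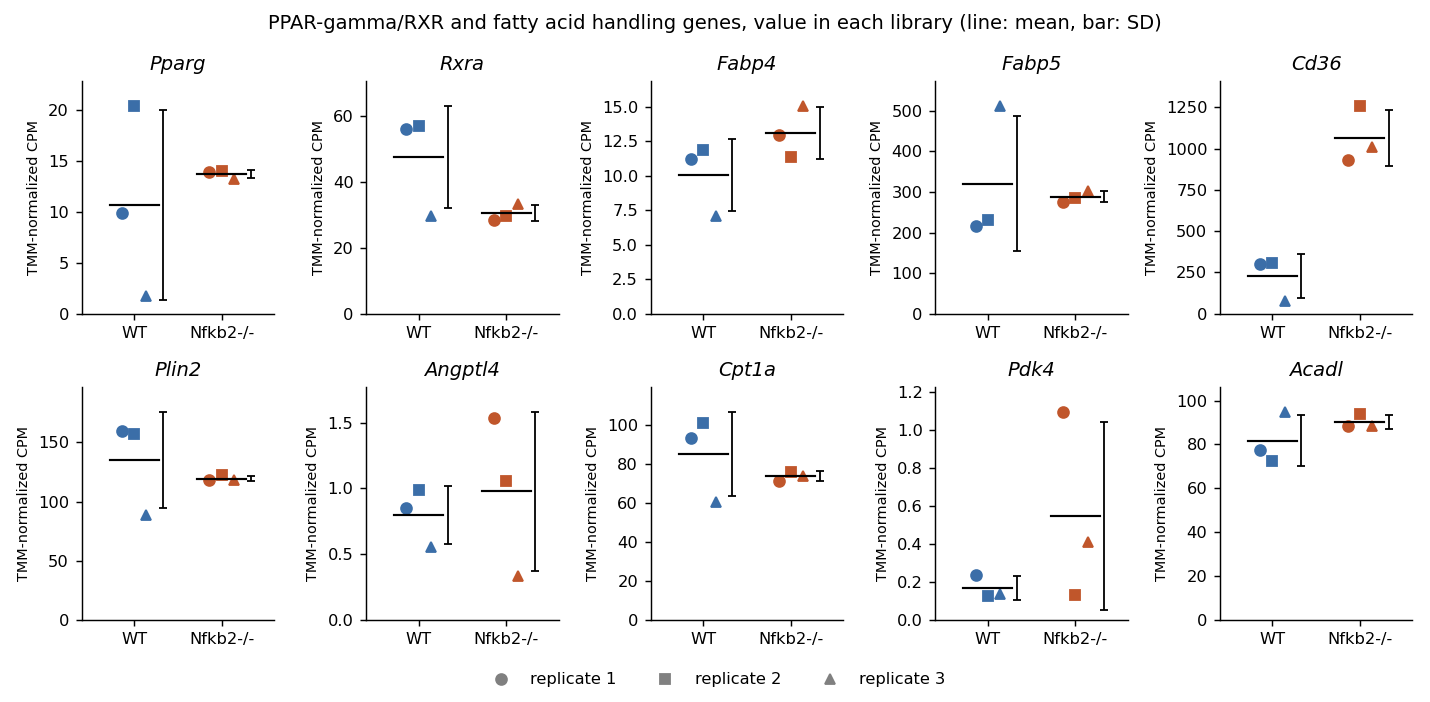
TMM-normalized CPM of the 10 genes in each library (vertical axes, linear and starting at 0, 1 panel per gene), with WT in blue and Nfkb2-/- in orange, symbols for the replicate number, lines for means and bars for SD (n = 3). Cd36 is the gene whose genotypes do not overlap, and WT replicate 3 (triangle) holds the lowest WT value of 7 of the 10 genes.

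Pparg (ENSMUSG00000000440, GRCm38 chr6:115360951-115490399, plus strand) encodes PPAR-gamma and is transcribed from several start sites, among them those of a widely used isoform and of an isoform typical of adipocytes. The deposited counts add all transcripts of the gene together, so that start sites cannot be told apart. The 250 bases before the 3 start sites that RefSeq gives for Pparg on GRCm38.p6 are shown because Pparg is the receptor of the set and differed most between WT libraries. The same table gives a Cd36 start site that lies inside the annotated gene and not at its upstream end (chr5:17888801). The 250 bases before it are shown because Cd36 had the largest difference between the genotypes among the 10 genes. All are written 5′ to 3′ on the strand of the gene, and capitals mark the nuclear receptor core hexamer AGGTCA on either strand (TGACCT on the other).
Pparg, chr6:115360894-115361143, plus strand: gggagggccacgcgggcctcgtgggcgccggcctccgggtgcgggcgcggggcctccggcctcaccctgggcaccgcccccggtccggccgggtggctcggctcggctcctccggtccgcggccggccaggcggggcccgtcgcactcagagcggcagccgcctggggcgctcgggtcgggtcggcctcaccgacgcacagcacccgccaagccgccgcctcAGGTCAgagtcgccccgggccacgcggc
Pparg, chr6:115362099-115362348, plus strand: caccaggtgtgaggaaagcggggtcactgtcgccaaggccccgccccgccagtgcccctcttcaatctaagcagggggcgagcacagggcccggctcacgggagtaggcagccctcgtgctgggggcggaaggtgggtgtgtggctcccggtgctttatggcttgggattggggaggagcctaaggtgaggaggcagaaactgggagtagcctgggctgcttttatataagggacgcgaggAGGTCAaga
Pparg, chr6:115421816-115422065, plus strand: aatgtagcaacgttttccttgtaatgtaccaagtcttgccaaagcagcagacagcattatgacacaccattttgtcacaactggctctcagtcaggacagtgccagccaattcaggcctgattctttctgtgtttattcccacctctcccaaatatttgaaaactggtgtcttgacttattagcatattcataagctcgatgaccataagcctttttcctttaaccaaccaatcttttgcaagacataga
Cd36, chr5:17835897-17836146, minus strand: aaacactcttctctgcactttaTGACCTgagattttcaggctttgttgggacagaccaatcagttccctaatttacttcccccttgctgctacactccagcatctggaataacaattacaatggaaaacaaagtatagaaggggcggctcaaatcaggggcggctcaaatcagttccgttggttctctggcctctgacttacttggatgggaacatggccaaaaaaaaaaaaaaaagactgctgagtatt

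The hexamer occurred 1 time before each of the first 2 Pparg start sites, beginning 28 and 9 bases upstream, and 1 time before that Cd36 start site, beginning 228 bases upstream. It was not in the window before the third Pparg start site. Of the 10 promoter windows in that table for 7 of the 10 genes, 6 held AGGTCA on either strand, against 14.0% of all 32851 windows of this length. The full PPAR response element, the direct repeat AGGTCANAGGTCA, in which each hexamer also counts as AGGTCA, was in 0 of the 10 windows and in 0.0335% of all windows. The letters TTCNNNGAA (STAT5) and TTCNNNNGAA (STAT6) were in 0 of the 10 windows, against 7.02% and 5.85% of all windows. The letters GGGNNNNNCC, a loose form of the NF-κB site, were in 8 of the 10 and in 45.8% of all windows. PPAR-gamma is known to act largely from enhancers away from start sites, which these windows do not cover.

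In WT, Pparg measured 9.84, 20.4 and 1.76 CPM, and Nfkb2-/- replicates 1 to 3 gave 13.9, 14.0 and 13.2 CPM. The Nfkb2-/- libraries were close together, and they lay inside the WT range, which spanned 11.6-fold. The means were 10.7 ± 9.33 CPM in WT and 13.7 ± 0.398 CPM in Nfkb2-/- BMDCs (SD, n = 3 each). The log2 fold change was 0.36 (SE 0.69, adjusted p = 0.825, edgeR), with a 95% interval from -1.25 to 1.97, which holds changes of more than 2-fold in either direction. It became -0.13 when WT replicate 3 was left out and 1.23 when WT replicate 2 was, so that the sign depended on which WT libraries were kept.

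Rxra (ENSMUSG00000015846, chr2:27676440-27762957, plus strand), which encodes the partner in the heterodimer, measured 55.9, 56.9 and 29.6 CPM in WT and 28.5, 29.7 and 33.1 CPM in Nfkb2-/- libraries. WT replicates 1 and 2 were above all Nfkb2-/- libraries, and WT replicate 3 was among them. For Rxra, the log2 fold change was -0.64 (SE 0.26, 95% interval -1.25 to -0.04), and the adjusted p-value was 0.266 (edgeR). Without WT replicate 3 the log2 fold change was -0.89 (SE 0.14, adjusted p = 0.0498, edgeR), a call just inside the threshold. Over all 15 alternatives its adjusted p-value ran from 0.0314 to 0.581 (edgeR, DESeq2 or limma).

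Inside each library, the ratio of Rxra to Pparg counts does not depend on how libraries are scaled. It was 5.68, 2.79 and 16.9 in WT and 2.05, 2.13 and 2.50 in Nfkb2-/- libraries. Every Nfkb2-/- library had a lower ratio than every WT library. The mean log2 ratio was 2.69 ± 1.31 in WT and 1.15 ± 0.152 in Nfkb2-/- BMDCs (SD, n = 3 each). The difference was -1.54 (p = 0.1 in a two-sided exact permutation test, which cannot give less with 3 libraries against 3). Without WT replicate 3 it was -0.84.

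The 10645 genes that averaged 5 CPM or more were compared with Pparg by the root mean square difference of their log2 CPM, each gene centred on its own mean over the 6 libraries. Abca13, Ndst1, Rtp4 and Ifi203 were among the closest, with differences from 0.156 to 0.194 on the log2 scale. Like Pparg, each of these 4 had its highest value in WT replicate 2 and its lowest in WT replicate 3. Among the other 9 genes of the set, Fabp4 (0.863) and Cd36 (0.889) were the closest to Pparg, with 10.9% and 12.2% of the genes compared lying closer. Fabp5 was the farthest (1.50), with 92.5% lying closer. These are descriptions of 6 libraries, in which 1 library, WT replicate 3, makes much of the pattern.

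Cd36 (ENSMUSG00000002944, chr5:17781690-17888801, minus strand) encodes a surface receptor that takes up long-chain fatty acids and oxidized lipoproteins and is a known target of PPAR-gamma. It measured 301, 305 and 73.9 CPM in WT and 929, 1258 and 1007 CPM in Nfkb2-/- libraries. The lowest Nfkb2-/- library was far above the highest WT library (two-sided p = 0.1 in an exact permutation test). The means were 227 ± 132 CPM and 1065 ± 172 CPM (SD, n = 3 each), and the fitted difference was 4.70-fold. For Cd36, the log2 fold change was 2.23 (SE 0.51, 95% interval 1.05 to 3.42), but the adjusted p-value of 0.0908 missed the threshold (edgeR). It passed at an adjusted p-value under 0.1, as 3.70% of all genes did.

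The position of WT replicate 3 widened the spread of Cd36, whose WT libraries differed by 4.13-fold. Without that library the log2 fold change was smaller, 1.82, with a smaller SE of 0.20 and an adjusted p-value of 0.0261 (edgeR). The adjusted p-value was 1.20e-04 with DESeq2 and 0.0559 with limma voom. With all genes that had 1 count kept, where 3.50% of all genes were called, it was 9.19e-07 (edgeR). In that setting the SEs of Pparg, Fabp4, Cpt1a and Acadl were all 0.28 or 0.29. With the filter of 50 counts they were 0.69, 0.24, 0.21 and 0.15, so the spread of each gene counted for less without it. The median log2 fold change over all genes was 0.60 there, against 0.08. The log2 fold change of Cd36 ranged from 1.82 to 2.51 over the 15 alternatives, and Cd36 passed the threshold in 4 of them, that setting included. Macrophages also express Cd36. The summed macrophage markers are given above and those of alveolar macrophages below, and their part in the result was not tested.

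Fabp4 (ENSMUSG00000062515, chr3:10204088-10208576, minus strand) and Fabp5 (ENSMUSG00000027533, chr3:10012548-10016607, plus strand) encode small cytosolic carriers that bring fatty acids to their sites of use, and Fabp4 is a classical PPAR-gamma target of adipocytes and macrophages. Fabp4 measured 11.2, 11.9 and 7.09 CPM in WT and 12.9, 11.3 and 15.1 CPM in Nfkb2-/- libraries. The ranges overlapped only between WT replicate 2 and Nfkb2-/- replicate 2. The log2 fold change of Fabp4 was 0.38 (SE 0.24, adjusted p = 0.470, edgeR), with a 95% interval from -0.18 to 0.94.

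Fabp5 was far more abundant, with 216, 231 and 512 CPM in WT and 276, 286 and 303 CPM in Nfkb2-/- libraries. WT replicate 3 was the highest library for Fabp5, whereas it was the lowest for Fabp4, Pparg and Cd36. The log2 fold change of -0.15 (SE 0.33, adjusted p = 0.853, edgeR) became 0.37 without WT replicate 3 (adjusted p = 0.264). In that setting all 3 Nfkb2-/- libraries were above both WT libraries. The ratio of Fabp5 to Fabp4 counts was 19.2, 19.5 and 72.2 in WT and 21.3, 25.2 and 20.1 in Nfkb2-/- libraries. It stood near 20 in every library but WT replicate 3, and the mean log2 ratio differed by -0.44 (exact permutation test, two-sided, p = 1), or by 0.19 without that library. Reads of Fabp5 could in part belong to copies of the gene. The named copy Fabp5l2 held 4 to 15 counts per library, against at least 7516 counts of Fabp5.

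Plin2 (ENSMUSG00000028494, chr4:86648386-86670060, minus strand) encodes perilipin 2, which coats lipid droplets in most cells. It measured 160, 157 and 88.4 CPM in WT and 118, 122 and 118 CPM in Nfkb2-/- libraries. The Nfkb2-/- libraries lay between WT replicates 1 and 2 above and WT replicate 3 below. The log2 fold change was -0.18 (SE 0.23, adjusted p = 0.738, edgeR), and the 95% interval from -0.73 to 0.37 leaves out a change of 2-fold in either direction. Leaving out 1 WT library at a time gave -0.04 without replicate 1, -0.06 without replicate 2 and -0.41 without replicate 3.

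Cpt1a (ENSMUSG00000024900, chr19:3322334-3385733, plus strand) encodes the enzyme that commits long-chain fatty acids to mitochondrial oxidation by linking them to carnitine. It had the same arrangement as Plin2, with 93.4, 101 and 60.6 CPM in WT and 71.0, 75.8 and 73.9 CPM in Nfkb2-/- libraries. The log2 fold change was -0.21 (SE 0.21, adjusted p = 0.645, edgeR). Leaving out 1 WT library at a time gave -0.13, -0.07 and -0.40 for replicates 1, 2 and 3. Acadl (ENSMUSG00000026003, chr1:66830839-66863277, minus strand), which encodes long-chain acyl-CoA dehydrogenase, an enzyme of the first step of mitochondrial beta-oxidation, was the steadiest of the set. It measured 77.5, 72.6 and 94.7 CPM in WT and 88.4, 94.0 and 88.6 CPM in Nfkb2-/- libraries. The highest and lowest WT libraries differed by 1.30-fold, and the 95% interval of the log2 fold change ran from -0.21 to 0.50 around 0.15 (adjusted p = 0.657, edgeR).

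Angptl4 and Pdk4 are strong PPAR targets in fat, liver and muscle, and both were near the detection limit in these cells. Angptl4 (ENSMUSG00000002289, chr17:33773750-33781830, minus strand) encodes a secreted inhibitor of lipoprotein lipase. It had 36, 32 and 16 counts in WT and 52, 32 and 18 counts in Nfkb2-/- libraries, or 0.854, 0.984 and 0.551 CPM against 1.54, 1.05 and 0.337 CPM. The genotypes overlapped, and the log2 fold change of 0.28 (SE 0.63, adjusted p = 0.853, edgeR) became -0.25 without Nfkb2-/- replicate 1. Pdk4 (ENSMUSG00000019577, chr6:5483351-5496309, minus strand) encodes a kinase that inhibits pyruvate dehydrogenase and so spares glucose when fatty acids are burned. It had 10, 4 and 4 counts in WT and 37, 4 and 22 counts in Nfkb2-/- libraries, where 3 counts correspond to 0.0561 to 0.103 CPM. Its log2 fold change of 1.69 had a SE of 0.94 (adjusted p = 0.420, edgeR). The highest value of both genes was in Nfkb2-/- replicate 1, the library with counts on the most Ensembl IDs, and without it Pdk4 had too few counts to be tested.

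**Figure D2:**
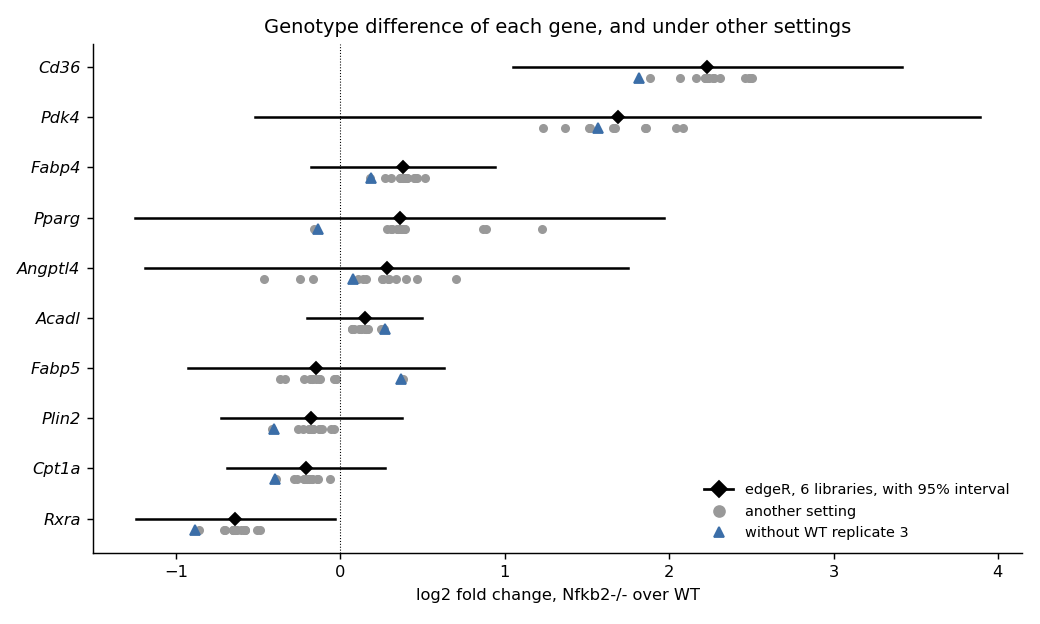
Log2 fold change of Nfkb2-/- over WT for each of the 10 genes from edgeR on 6 libraries (black diamond, line for the 95% interval), with the value under every other setting below it (grey points, blue triangle without WT replicate 3). The intervals of Cd36 and Rxra leave out 0, and the values of Pparg, Fabp5 and Angptl4 fall on both sides of 0.

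Levels of different genes were compared per kb of the principal transcript in GENCODE M21. In WT the order of the mean levels was Fabp5 (324 ± 169 CPM per kb), Plin2 (71.6 ± 21.4), Cd36 (66.7 ± 38.9), Acadl (42.6 ± 6.06), Cpt1a (19.7 ± 4.97), Fabp4 (11.2 ± 2.90), Rxra (9.68 ± 3.16), Pparg (6.03 ± 5.28), Angptl4 (0.241 ± 0.0673) and Pdk4 (0.0476 ± 0.0178 CPM per kb, SD, n = 3 each). In that order the libraries of Plin2, Cd36 and Acadl overlapped from each gene to the next, as did those of Fabp4, Rxra and Pparg. The other neighbours did not overlap. In Nfkb2-/- BMDCs Cd36 came first, at 313 ± 50.6 CPM per kb, with libraries that overlapped those of Fabp5 at 292 ± 14.2 CPM per kb. Pparg, at 7.75 ± 0.225 CPM per kb, was above Rxra, at 6.21 ± 0.491 CPM per kb, and their libraries did not overlap (SD, n = 3 each). The counts add all transcripts of a gene, so such orders depend on the length used. Principal transcript and merged exons measure 1767 and 2953 bases for Pparg and 4905 and 5462 for Rxra. For Fabp5 they measure 987 and 3567 bases, for Cd36 3399 and 3590, and for Fabp4 896 and 4489. The orders of Pparg and Rxra and of Cd36 and Fabp5, and the place of Fabp4, are therefore not settled by these levels.

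**Figure D3:**
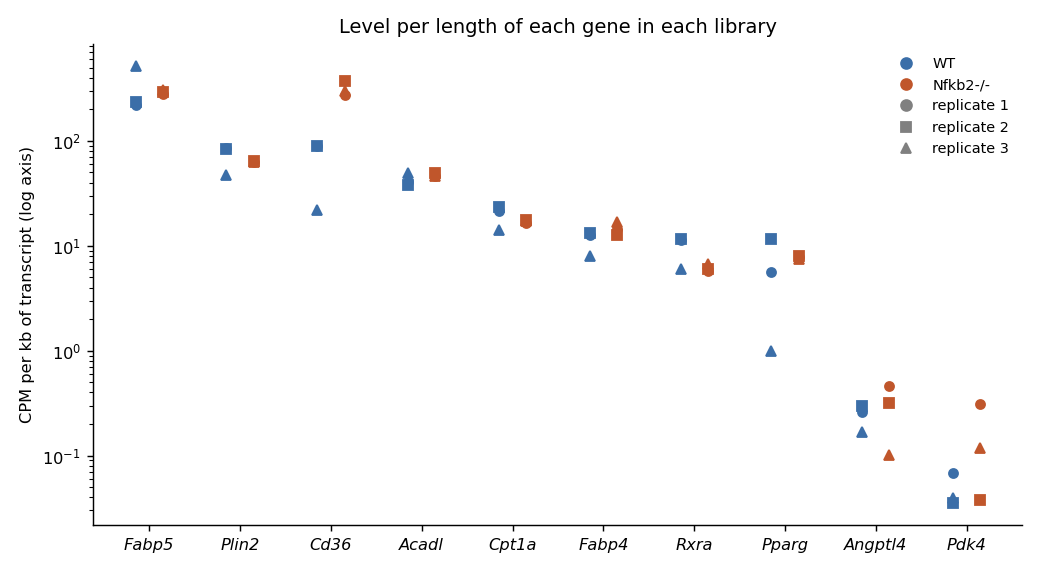
Level of each of the 10 genes in each library, in CPM per kb of the principal transcript (vertical axis, logarithmic), ordered by the WT mean, with WT in blue, Nfkb2-/- in orange and symbols for the replicate number. With this length the Nfkb2-/- libraries of Cd36 reach the level of Fabp5, and Angptl4 and Pdk4 lie below 1 CPM per kb in every library.

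The spread within a genotype was itself uneven. In 8 of the 10 genes, all but Angptl4 and Pdk4, the ratio of the highest to the lowest library was at most 1.35 among Nfkb2-/- libraries, and in WT it ran from 1.30 for Acadl to 11.6 for Pparg. Lpl, which encodes lipoprotein lipase and is another target of PPAR-gamma, had the pattern of Cd36 in WT, with 938, 970 and 195 CPM. In Nfkb2-/- libraries it measured 1148, 1825 and 1565 CPM, above every WT library (log2 fold change 1.11, SE 0.55, adjusted p = 0.365, edgeR). Without WT replicate 3 the difference in Lpl was smaller, 0.67 on the log2 scale (SE 0.23, adjusted p = 0.225, edgeR), and without Nfkb2-/- replicate 1 as well it was 0.81 and passed the threshold (adjusted p = 0.0352). Genes that are high in alveolar macrophages, a cell type that needs GM-CSF and PPAR-gamma, are also known in GM-CSF cultures. The summed level of 8 of them was 1554, 1621 and 608 CPM in WT and 2622, 3611 and 2720 CPM in Nfkb2-/- libraries. Most of that sum was Chil3, at 1151, 1084 and 539 CPM in WT and 2188, 3072 and 2265 CPM in Nfkb2-/- libraries (log2 fold change 1.44, SE 0.32, adjusted p = 0.0879, edgeR). By edgeR 0 of these 8 and 0 of the 11 macrophage markers were differentially expressed. Unadjusted p-values under 0.05 belonged to 3 of the former and to 1 of the latter, Apoe, against 17.1% of all genes. The 3 were Chil3, Siglecf and Marco, with log2 fold changes of 1.44 for Chil3, 1.69 for Siglecf and -2.63 for Marco. Marco was the 1 negative gene of the 8. The other 7 had positive log2 fold changes, and the median of the 8 was 1.45, against 0.08 over all genes tested. In 3 of the 8 the genotypes did not overlap, all higher in Nfkb2-/- libraries, where 24.7% of all genes did not overlap. Apoe, which encodes the lipoprotein component apolipoprotein E, measured 82.3, 56.5 and 3.68 CPM in WT and 2.25, 0.725 and 0.898 CPM in Nfkb2-/- libraries (log2 fold change -5.21, SE 1.10, adjusted p = 0.0770, edgeR). No Nfkb2-/- library reached the lowest WT library for Apoe. The part of macrophage content in the values of Pparg, Cd36 and Lpl was not tested.

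**Figure D4:**
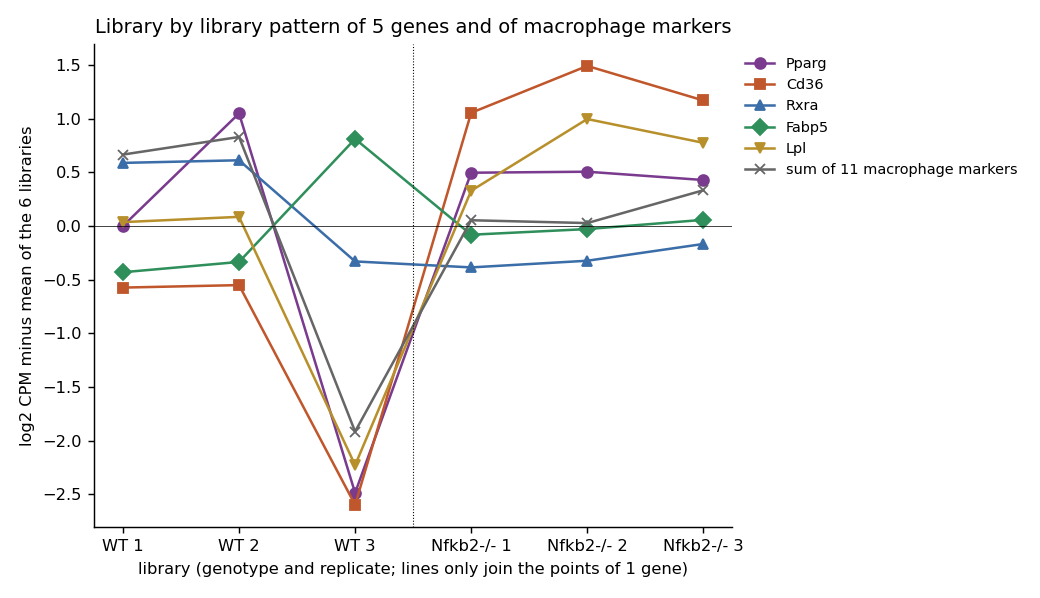
Log2 CPM of Pparg, Cd36, Rxra, Fabp5 and Lpl and of the sum of 11 macrophage markers, each minus its mean over the 6 libraries (vertical axis), by library, with a dotted line between the genotypes. WT replicate 3 is the lowest library for Pparg, Cd36, Lpl and the macrophage markers and the highest for Fabp5.

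Markers of other cell types were read in the same way. Of 5 adipocyte markers 1, Plin1, had enough counts to be tested, at 1.57 CPM or less in every library, and Adipoq, Lep, Cidea and Cfd had not. Lymphocyte markers summed to 0.561 to 1.48 CPM in 5 libraries and to 5.41 CPM in Nfkb2-/- replicate 1. Markers of mast cells and basophils summed to 44.6 to 54.6 CPM, most of it Kit, and 1 of 5 tested, Cpa3, was differentially expressed, at 6.31 to 10.8 CPM in WT and 1.86 to 2.49 CPM in Nfkb2-/- libraries (log2 fold change -1.84, SE 0.28, adjusted p = 0.0413, edgeR). Kit had the 1 positive log2 fold change of these 5, and the median was -1.14, against 0.08 over all genes tested. In 3 of the 5, Cpa3, Mcpt8 and Ms4a2, the genotypes did not overlap, all lower in Nfkb2-/- libraries, where 24.7% of all genes did not overlap. Mcpt8 and Ms4a2 had at most 60 counts in any library. Markers of granulocytes summed to 87.7 to 246 CPM, most of it S100a8 and Ngp, and 0 of 10 tested were differentially expressed by edgeR (2 with an unadjusted p-value under 0.05). Of 11 dendritic cell markers, 1 was differentially expressed, and 6 had positive and 5 negative log2 fold changes. Itgax, which encodes CD11c, was the gene called, at 160, 277 and 123 CPM in WT and 745, 769 and 716 CPM in Nfkb2-/- libraries (log2 fold change 1.99, SE 0.30, adjusted p = 0.0414, edgeR). Itgax passed the threshold in 10 of 15 alternatives. Fscn1, Ccr7 and Zbtb46, the last a transcription factor of conventional dendritic cells, lay on the other side, with log2 fold changes of -1.49, -0.97 and -0.54 (adjusted p = 0.0902, 0.235 and 0.192, edgeR).

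The rest of the pathway was read from 9 lists with 115 genes, of which 111 had enough counts to be tested. By edgeR 1 of the 111 was differentially expressed, Acsf2, close to the 1.14% of all genes tested. Acsf2, which encodes an acyl-CoA synthetase that activates medium-chain fatty acids, fell from 23.2, 19.9 and 20.6 CPM in WT to 8.95, 8.90 and 6.64 CPM in Nfkb2-/- libraries. Here WT replicate 3 lay with the other WT libraries. Its log2 fold change was -1.38 (SE 0.18, adjusted p = 0.0332, edgeR) and stayed between -1.49 and -1.25 in 15 alternatives, in 9 of which Acsf2 passed the threshold. Leaving out WT replicate 3 gave an adjusted p of 0.0414 by edgeR. Leaving out WT replicate 1 gave 0.161, and leaving out any Nfkb2-/- library gave 0.0876 to 0.166.

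Of the receptors related to PPAR-gamma and RXR-alpha, 3 were tested and 0 called by edgeR (0 with an unadjusted p-value under 0.05). Ppard, the PPAR form found in most tissues, measured 21.4 to 31.7 CPM in WT and 29.5 to 34.0 CPM in Nfkb2-/- libraries (log2 fold change 0.30, SE 0.18). Rxrb, which can replace RXR-alpha in the heterodimer, measured 17.8 to 26.8 CPM and 18.2 to 22.6 CPM. Ppara, the main PPAR of liver, was at 0 to 0.190 CPM in WT, and reached 1.24 CPM in Nfkb2-/- replicate 1 alone.

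The list of coactivators and corepressors had 11 genes tested, 0 called and 9 with negative log2 fold changes, with a median of -0.16 against 0.08 over all genes tested. Nrip1, a corepressor of nuclear receptors in fat, measured 587 to 1064 CPM in WT and 418 to 521 CPM in Nfkb2-/- libraries (log2 fold change -0.79, SE 0.24, adjusted p = 0.162, edgeR). Crebbp and Ncor1 were the next most abundant, with log2 fold changes of -0.39 and -0.16. Among the genes that carry GM-CSF and IL-4 signals 0 of 11 were called, with 3 positive and 8 negative log2 fold changes and a median of -0.20. In 6 of the 11 the genotypes did not overlap, where 24.7% of all genes did not. Of these, 5 were lower in Nfkb2-/- libraries and 1, Csf2ra, was higher. Jak2, the kinase bound to the GM-CSF receptor, differed by -0.09 on the log2 scale, and Csf2rb, its common beta chain, by -0.47 (SEs 0.25 and 0.21, adjusted p = 0.883 and 0.321, edgeR). Csf2ra, the alpha chain specific to that receptor, lay on the other side, at 106 to 159 CPM in WT and 185 to 269 CPM in Nfkb2-/- libraries (log2 fold change 0.67, SE 0.22, adjusted p = 0.189, edgeR). Csf2rb2 is a near copy of Csf2rb, so that reads may be split between them, and its log2 fold change was -0.44. DESeq2 called 8 of the 111 genes, beside the 8.65% of all genes that it called, so that the pathway did not stand above the background there.

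**Figure D5:**
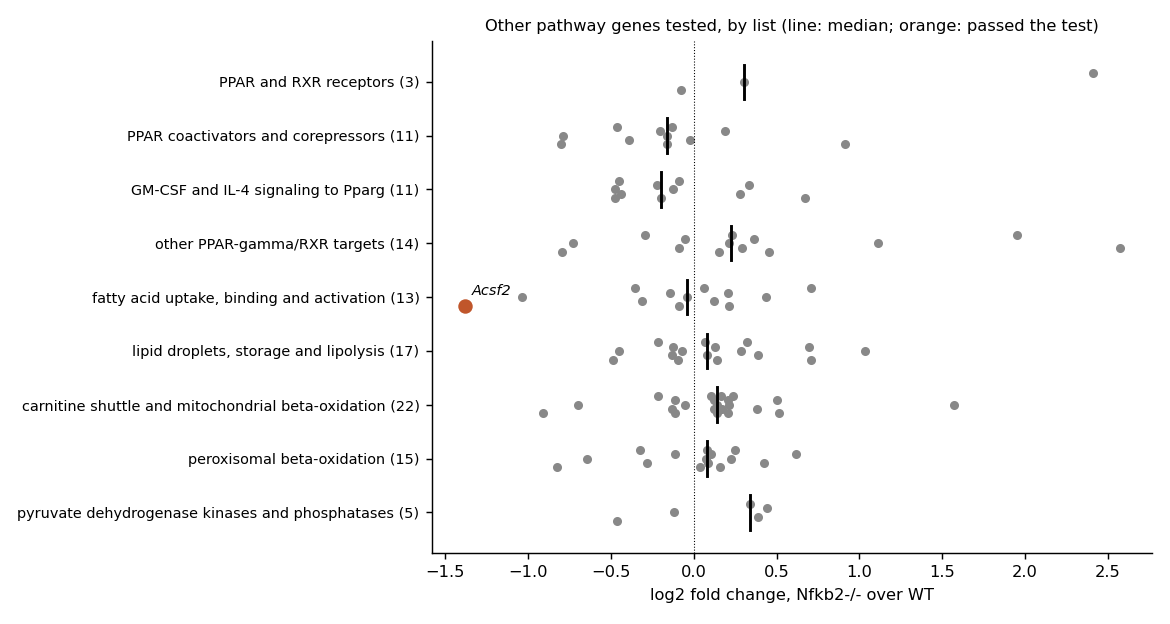
Log2 fold change of Nfkb2-/- over WT (horizontal axis) for the tested genes of 9 pathway lists (number tested in brackets), with a black line at each median and the gene that passed edgeR's test in orange. Acsf2 is the 1 gene called, and the medians of the lists lie between -0.20 and 0.34.

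Other PPAR-gamma/RXR targets had 14 genes tested and 0 called, with a median log2 fold change of 0.22. Lpl was described above. Abcg1, a sterol exporter, measured 608 to 895 CPM in WT and 445 to 460 CPM in Nfkb2-/- libraries, without overlap and opposite in sign to Cd36 and Lpl (log2 fold change -0.73, SE 0.18, adjusted p = 0.113, edgeR). Ucp2, a mitochondrial carrier, differed by 0.29 on the log2 scale (SE 0.15). Genes of this list thus lay on both sides of 0.

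Fatty acid uptake and activation had 13 genes tested, with a median of -0.04. Besides Acsf2, the most abundant were Acsl4, an acyl-CoA synthetase with a preference for arachidonic acid, Slc27a3 and Acbd3. Slc27a3, a fatty acid transport protein, measured 119, 59.3 and 186 CPM in WT and 57.9 to 60.1 CPM in Nfkb2-/- libraries, with a log2 fold change of -1.04 (SE 0.37, adjusted p = 0.211, edgeR). The log2 fold changes of Acsl4 and Acbd3 were 0.21 and 0.06. Lipid droplets, storage and lipolysis had 17 genes tested and 0 called, with a median of 0.08. Lipa, the lysosomal acid lipase, was lowest in WT replicate 3, as were Pparg and Cd36. It measured 493, 451 and 91.9 CPM in WT and 320, 443 and 379 CPM in Nfkb2-/- libraries. Mgll, which splits monoglycerides, measured 35.7, 80.1 and 26.7 CPM in WT and 77.5, 84.3 and 70.9 CPM in Nfkb2-/- libraries (log2 fold change 0.71, SE 0.38), and Lpin1 had a log2 fold change of 0.07.

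The carnitine shuttle and mitochondrial beta-oxidation had 22 genes tested and 0 called, 15 with positive and 7 with negative log2 fold changes and a median of 0.14. In 7 of the 22 the genotypes did not overlap, where 24.7% of all genes did not. Of these 7, 5 were higher and 2 lower in Nfkb2-/- libraries. Hadha, a subunit of the trifunctional protein, measured 85.6 to 106 CPM in WT and 96.1 to 107 CPM in Nfkb2-/- libraries. Etfa and Etfdh, which pass electrons from acyl-CoA dehydrogenases such as that of Acadl to the respiratory chain, had log2 fold changes of opposite sign, 0.50 and -0.91 (SEs 0.16 and 0.34, adjusted p = 0.177 and 0.234, edgeR). In neither gene did the genotypes overlap. Slc25a20, the carnitine-acylcarnitine carrier, also lay lower without overlap (log2 fold change -0.70, SE 0.21, adjusted p = 0.152, edgeR). Peroxisomal beta-oxidation had 15 genes tested and 0 called, with a median of 0.08 and 4 genes without overlap. The fatty acyl-CoA transporters Abcd2 and Abcd3 had log2 fold changes of -0.82 and -0.64 (adjusted p = 0.0759 and 0.163, edgeR). Acox3, an acyl-CoA oxidase, measured 143, 205 and 112 CPM in WT and 235, 231 and 240 CPM in Nfkb2-/- libraries, without overlap (log2 fold change 0.61, SE 0.23, adjusted p = 0.229, edgeR). Scp2 had a log2 fold change of 0.08. Among 5 kinases and phosphatases of pyruvate dehydrogenase 0 were called, and Pdk3, Pdk1 and Pdp1, unlike Pdk4, were expressed at 10.9 CPM or more in every library, with log2 fold changes of -0.12, 0.34 and 0.39. Unadjusted p-values below 0.05 (edgeR) belonged to 0 of 3 related receptors, 3 of 11 coactivators and corepressors and 2 of 11 GM-CSF and IL-4 signaling genes. They belonged to 2 of 14 other targets, 3 of 13 genes of fatty acid uptake and activation and 1 of 17 of lipid droplets. For mitochondrial beta-oxidation, peroxisomal beta-oxidation and pyruvate dehydrogenase the numbers were 4 of 22, 3 of 15 and 1 of 5. Over all genes tested the share was 17.1%.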

How the data were processed

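RNA-seq counts of BMDCs were taken from 3 WT and 3 Nfkb2-/- libraries, grouped by the genotype in the labels. The authors deposited raw read counts per Ensembl gene for each library, without normalization. HISAT2 and the builds GRCm38 and mm10 appear in the submitters' processing notes. The HISAT2 version, the counting tool, the annotation and the use of strand are not given in the sources used here, so that counts of overlapping or near-identical genes are uncertain. The table joining the libraries holds the same values in all 56748 rows and was not used.

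Symbols came from GENCODE M21 (GRCm38), which names 52073 of the Ensembl IDs. Unnamed IDs, with 1.01% to 1.75% of a library's counts, were left out. As in the study, a gene was kept when its counts summed to 50 or more, which left 21849 genes. The study reports fewer genes under this rule, so the genes tested are not the same, and the difference was not traced. R 4.3.3 was used with edgeR 4.0.16 (TMM, glmQLFit and glmQLFTest without covariates), DESeq2 1.42.0 and limma 3.58.1, and p-values were adjusted over all genes tested by Benjamini-Hochberg. The study used DESeq2, which is an alternative here. The threshold was an adjusted p-value under 0.05 with a fold change over 1.2. Standard errors are the log2 fold change divided by the square root of F, and intervals use the degrees of freedom of the fit (5.32 to 7.32). Exact permutation tests used log2 CPM (prior count 2) or log2 count ratios. The fits were tested on simulated data. The study describes 3 independent biological replicates per genotype, but the labels do not name separate animals per library. The p-values therefore measure the spread between these libraries.

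The 10 genes, the pathway lists and the marker lists were chosen with earlier results of these data known. Named from each pathway list are the genes called and the 3 with the highest mean CPM. Some genes that this rule or another list would name are not reported here. Any other gene named for its values was chosen after they were seen. Depth was 29863927 to 55623068 counts per library, at which counting error is small except for genes with few counts. Among these were Angptl4, Pdk4, Ppara, Plin1, Marco and the lymphocyte markers. Promoter windows came from RefSeq (GRCm38.p6), which held 7 of the 10 genes.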

Additional observations from a re-analysis of the deposited data

How the results depend on the processing

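Of 146 values of single genes of the set under the alternatives, 133 kept their direction and their side of the threshold, 6 passed the threshold where they had not, and 7 reversed. Under DESeq2, 1890 genes were called over all genes, 1 of the 10 and 8 pathway genes. With limma voom 488 genes were called, with filterByExpr 397, with at least 10 counts in every library 459 (2 pathway genes), and at an adjusted p-value under 0.1, 808 genes and 1 of the 10. With no filter beyond 1 count these numbers were 1625, 1 of the 10 and 4 pathway genes, and with total counts in place of TMM no pathway gene was called (0). With 1 library left out, 0 to 1248 genes were called over all genes, 0 to 2 of the 10 and 0 to 7 of the pathway genes, the highest for all genes and the pathway without WT replicate 2. Leaving out WT replicate 3 and Nfkb2-/- replicate 1 together, chosen after seeing the data, gave 908 genes, 2 of the 10 and 5 pathway genes. In that setting the log2 fold changes of Pparg, Fabp5 and Angptl4 were -0.16, 0.38 and -0.47. Without WT replicate 3 alone, those of Pparg and Fabp5 were -0.13 and 0.37. Angptl4 was at -0.17 with limma voom and at -0.25 without Nfkb2-/- replicate 1. With 1 library left out, the difference of the Fabp5 to Fabp4 log2 ratio ran from -0.76 to 0.19, reversing without WT replicate 3, and that of Rxra to Pparg from -2.14 to -0.84. Over the settings that left out libraries, the highest value was 1.23 for Pparg and 0.70 for Angptl4, and the lowest was -0.37 for Fabp5. The cause was not tested.

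With the replicate number as a block, 0 genes were called over all genes (3331 with an unadjusted p-value under 0.05), 0 of the 10 and 0 pathway genes. The deviations of same-numbered libraries from their genotype means correlated at 0.262, 0.148 and 0.0224, and not every library correlated best with its own number. With 3 libraries per genotype, these correlations cannot show whether same-numbered libraries were paired. Depth limits Angptl4 and Pdk4, and Pdk4 could not be tested with filterByExpr, with at least 10 counts in every library or without Nfkb2-/- replicate 1.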
